A study of Homo sapiens with 6 samples.

Results

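FABP5 and 8 other genes of fatty acid binding, activation, synthesis and oxidation were followed in MDA-MB-231 cells, an established human triple-negative breast cancer line, with and without a knockout of ARID1A, which encodes a large subunit of BAF, a complex that remodels chromatin. The 9 genes are FABP5, FABP3, CRABP2, PPARD, ACSL1, ACSL3, SCD, FASN and CPT1A, out of 58174 gene IDs in the table. They were picked by symbol, with their values in these same columns already known, so their differences between columns are given below as a description and without a test. The labels define 3 groups, KO1 and KO2, both with the genotype ARID1A knockout, and NC, with the genotype control, and list 2 samples for each. The table holds 1 column of estimated counts per group, so nothing shows how far cultures of a group vary, and the 95% intervals in brackets reflect counting error alone. Whether KO1 and KO2 are single clones, how the gene was targeted and what the control cells carry is not given in the sources used here.

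Fatty acid binding proteins carry hydrophobic ligands through the cytosol. FABP5 binds long-chain fatty acids and can also carry retinoic acid, and it can hand ligand to the nuclear receptor PPARD, whereas CRABP2 carries retinoic acid to the retinoic acid receptors. Inside the cell, FASN builds palmitate from malonyl-CoA, SCD introduces the double bond that makes oleate and palmitoleate, long-chain acyl-CoA synthetases such as ACSL1 and ACSL3 couple free fatty acids to coenzyme A, and CPT1A passes the acyl group to carnitine for entry into mitochondria. FABP5 is a gene often described as expressed in triple-negative breast cancer.

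Total estimated counts were 25801499 in KO1, 26144758 in KO2 and 26798753 in NC. Transcripts of the mitochondrial genome took 20.5% of counts in KO1, 16.9% in KO2 and 12.8% in NC, and their part in the differences below was not tested. ARID1A itself was at 45.5 CPM (estimated counts per 1e6 counts of the TMM-scaled column total) in the column labelled KO1, 83.9 CPM in the column labelled KO2 and 77.5 CPM in NC, so its RNA level does not set the column labelled KO2 apart from the control. A knockout need not lower the RNA of the targeted gene, and the protein was not analysed here. The 8 markers of MDA-MB-231 cells examined were measured in each column, among them VIM at 4695, 2924 and 3422 CPM in KO1, KO2 and NC. They were not flat: EGFR was at 427 and 317 CPM in KO1 and KO2, against 152 CPM in NC, S100A4 at 41.7, 137 and 172 CPM, and FOSL1 at 612, 208 and 469 CPM. Of 8 luminal breast markers, PGR had 0 counts in each column, ESR1 had 0, 14 and 0 counts in KO1, KO2 and NC, FOXA1 had 47, 30 and 0, and CDH1 had 7, 30 and 8. KRT8 was at 643, 559.5 and 436 CPM, KRT18 at 355, 207 and 142 CPM, GATA3 at 15.3, 15.6 and 8.96 CPM, and ERBB2 at 27.9, 52.4 and 75.9 CPM. The luminal list summed to 1044 CPM in KO1 and 838 CPM in KO2, against 663 CPM in NC, and its part in the results was not tested. Of 10 adipocyte markers, ADIPOQ, LEP and CIDEA had 0 counts in each column. PPARG was at 20.6, 22.1 and 16.6 CPM in KO1, KO2 and NC, LIPE at 2.55, 7.39 and 6.16 CPM, and PLIN4 at 1.47, 4.50 and 1.76 CPM. LPL had 24, 23 and 0 counts, PLIN1 had 4, 14 and 6, CIDEC had 0, 0 and 6, and FABP4 had 0, 0 and 12. The list summed to 25.8, 35.3 and 25.4 CPM, most of it PPARG.

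FABP5 (ENSG00000164687, hg38 chromosome 8, 81280363 to 81284777, plus strand) had 0 counts in KO1, 0 counts in KO2 and 823 counts in NC, where it stood at 29.5 CPM (27.5 to 31.6) and 52.5 TPM. Both knockout columns lie below anything measurable at this depth. Against a floor of 3 counts per column, FABP5 was at least 227-fold lower than NC in the KO1 column, and for KO2 the same bound was at least 275-fold lower. Its 4 annotated transcripts were each above 0 in NC and each at 0 in KO1 and KO2. In NC, 485 counts (58.9%) were assigned to ENST00000297258 and 323 (39.2%) to ENST00000396359. Those share 539 exonic bases and 303 coding bases.

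Processed pseudogenes nearly identical to FABP5 can take up its fragments, so their counts were read beside it. Of 15 genes named as FABP5 pseudogenes, 7 had counts above 0 in any column. They summed to 2 counts in KO1, 0 in KO2 and 44 in NC, of which FABP5P7 on chromosome 11 held 0, 0 and 33. Added to FABP5, they gave 2, 0 and 867 counts. How the authors' tool treated fragments that match several copies is not given in the sources used here, and their part in the FABP5 counts was not tested. The antisense gene LNMICC, which overlaps FABP5 by 1084 bases, had 0 counts in KO1, 0 in KO2 and 3 in NC. The libraries mark strand, but whether the counting used it is not given in the sources used here.

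The surrounding chromosome was measured in the same columns. Within 1 Mb of FABP5 lie 50 genes, 26 of them above 0 in any column and 12 with at least 20 counts in one. Of those 12, 0 were at 0 counts in KO1, 0 were at 0 counts in KO2, and 1, the antisense gene ENSG00000251867, was at 0 counts in NC, with 21 and 11 counts in KO1 and KO2. The nearest of them before FABP5 is PAG1, a membrane adaptor of Src-family kinase signalling, 168 kb away at its nearest edge. PAG1 was at 15.6 CPM in KO1, 31.0 CPM in KO2 and 14.5 CPM in NC. On the other side IMPA1, inositol monophosphatase, 373 kb away, was at 24.2, 30.5 and 30.6 CPM. CHMP4C, an ESCRT-III subunit, was at 12.2 CPM in KO1 and 3.18 CPM in KO2, against 0.967 CPM in NC. FABP4, a related fatty acid binding protein 194 kb away, is below the limit of 20 counts, with 0, 0 and 12 counts. So is every other gene between PAG1 and IMPA1 apart from FABP5, among them FTH1P11 with 9, 12 and 19 counts. Genes closer to FABP5 than PAG1 and IMPA1 thus had too few counts to compare the columns. The median log2 fold of the 50 measured genes on each side of FABP5 was -0.32 in KO1 and -0.21 in KO2 against NC. The columns thus also differ a little over the wider region. Such a median does not show the levels close to FABP5, and the region's part in its values was not tested.

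**Figure D1:**
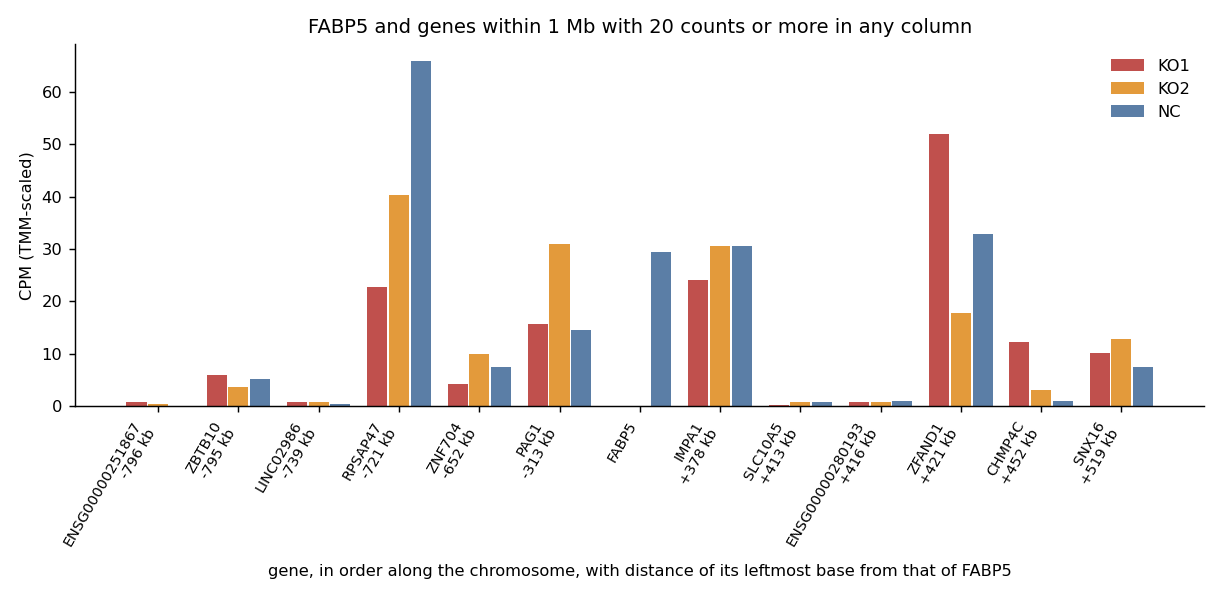
CPM (TMM-scaled) in KO1, KO2 and NC for FABP5 and for the 12 genes within 1 Mb that have at least 20 counts in any column, in chromosomal order with the distance of their leftmost base from that of FABP5 in kb. FABP5 has a bar in NC only, at 29.5 CPM, while PAG1 and IMPA1, the nearest genes shown on its sides, have bars in all 3 columns.

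The pattern of FABP5 was uncommon among well-expressed genes of the table. There were 1727 genes with 0 counts in KO1 and KO2 and more than 0 in NC, but 44 of them reached 1 CPM in NC and 6 reached 5 CPM, out of 11154 genes at 5 CPM or more in NC. FABP5 had the highest NC level of the 1727. After it, the genes with a symbol were IGHV3-15, an immunoglobulin variable segment, at 17.3 CPM in NC, CCDC3 at 14.1 CPM, the readthrough gene C1QTNF3-AMACR at 6.45 CPM and the cancer-testis gene CSAG1 at 5.62 CPM, followed by GPR158 at 3.40 CPM, LRFN1 at 3.15 CPM and ATF7IP2 at 3.15 CPM. The likeness is defined over these 3 columns alone. The mirror pattern, 0 counts in NC and above 5 CPM in both knockout columns, was held by 9 genes. Of genes at 5 CPM or more in NC, 22 were at 0 counts in KO1 and 11 at 0 counts in KO2. FABP5 was picked with these values known, so its rank is a description.

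The other listed FABPs were scarce, while acyl-CoA binding proteins of the same list, named after their values were seen, were not. DBI, the main acyl-CoA binding protein, was at 110.1, 126 and 176 CPM in KO1, KO2 and NC. FABP3 (ENSG00000121769, chromosome 1, 31365625 to 31376850, minus strand), the fatty acid binding protein of heart and muscle, had 2 counts in KO1, 6 in KO2 and 6 in NC. It missed the filter of a mean of 1 CPM over the 3 columns, and its ratio in KO1 was 2.48-fold lower with an interval of 0.444 to 25.2, which includes equality. Of the other family members, FABP6, the ileal bile acid carrier, had 2, 11 and 11 counts, and 8 of the 23 listed binding proteins had 0 counts in each column. No listed FABP was above 1 CPM in a knockout column.

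CRABP2 (ENSG00000143320, chromosome 1, 156699606 to 156705816, minus strand), the retinoic acid carrier, had 104 counts in KO1, 227 in KO2 and 369 in NC, or 4.50, 8.10 and 13.2 CPM. Both knockout columns lie below NC, and KO1 lies below KO2. In RNA from bulk cultures, fewer cells with a transcript and less of it per cell cannot be told apart. Relative to NC it stood 2.94-fold lower in KO1 (2.36 to 3.69) and 1.63-fold lower in KO2 (1.38 to 1.93). Between the knockout columns it was 1.80-fold higher in KO2 than in KO1 (1.42 to 2.29).

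PPARD (ENSG00000112033, chromosome 6, 35342558 to 35428191, plus strand), the receptor that FABP5 can supply, was higher in both knockout columns. It had 2271 counts in KO1, 2311 in KO2 and 1630 in NC, or 98.2, 82.5 and 58.4 CPM. That was 1.68-fold higher in KO1 (1.58 to 1.79) and 1.41-fold higher in KO2 (1.33 to 1.51). The 50 measured genes on each side of PPARD also had positive medians, log2 0.33 in KO1 and 0.26 in KO2, against log2 folds of 0.75 and 0.50 for PPARD itself.

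The acyl-CoA synthetases differed from each other. ACSL1 (ENSG00000151726, chromosome 4, 184755595 to 184826818, minus strand) had 822 counts in KO1, 1165 in KO2 and 946 in NC, or 35.6, 41.6 and 33.9 CPM. ACSL3 (ENSG00000123983, chromosome 2, 222860934 to 222944639, plus strand), the synthetase known from lipid droplets, had 1844, 3598 and 2121 counts, or 79.8, 128 and 76.0 CPM. The antisense gene ACSL3-AS1 within it had 14, 6 and 0 counts in KO1, KO2 and NC. Thus KO2 stood apart for ACSL3, 1.69-fold higher than NC (1.60 to 1.78), whereas the KO1 log2 folds were 0.07 for ACSL1 and 0.07 for ACSL3, with intervals that include equality, and turned to -0.15 for each when counts were scaled by column totals.

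SCD (ENSG00000099194, chromosome 10, 100347124 to 100364834, plus strand), the delta-9 desaturase, was the most abundant of the 9 genes per length in each column. It had 17595 counts in KO1, 55461 in KO2 and 23123 in NC, or 761, 1979.9 and 828 CPM. KO2 lay far above the other columns, 2.39-fold higher than NC (2.35 to 2.43) and 2.60-fold higher than KO1 (2.56 to 2.65). KO1 stood 1.09-fold lower than NC (1.07 to 1.11). Its 50 measured neighbours on each side had medians of log2 0.19 in KO1 and 0.31 in KO2 against NC.

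FASN (ENSG00000169710, chromosome 17, 82078333 to 82098332, minus strand), fatty acid synthase, lay on opposite sides of NC in the knockout columns. It had 3875 counts in KO1, 19181 in KO2 and 11746 in NC, or 168, 685 and 421 CPM. It was 2.51-fold lower in KO1 (2.42 to 2.60) and 1.63-fold higher in KO2 (1.59 to 1.67) than in NC. Between the knockout columns FASN was 4.09-fold higher in KO2 than in KO1 (3.95 to 4.23), the largest ratio between them among the members with counts in both and the 1 CPM filter passed.

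CPT1A (ENSG00000110090, chromosome 11, 68754620 to 68844410, minus strand), the gate of mitochondrial fatty acid oxidation in most tissues, had 928 counts in KO1, 1028 in KO2 and 1437 in NC, or 40.1, 36.7 and 51.5 CPM. It was 1.28-fold lower in KO1 (1.18 to 1.39) and 1.40-fold lower in KO2 (1.29 to 1.52). Its neighbours had medians of log2 -0.60 in KO1 and -0.36 in KO2, beside log2 folds of -0.36 and -0.49 for CPT1A.

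**Figure D2:**
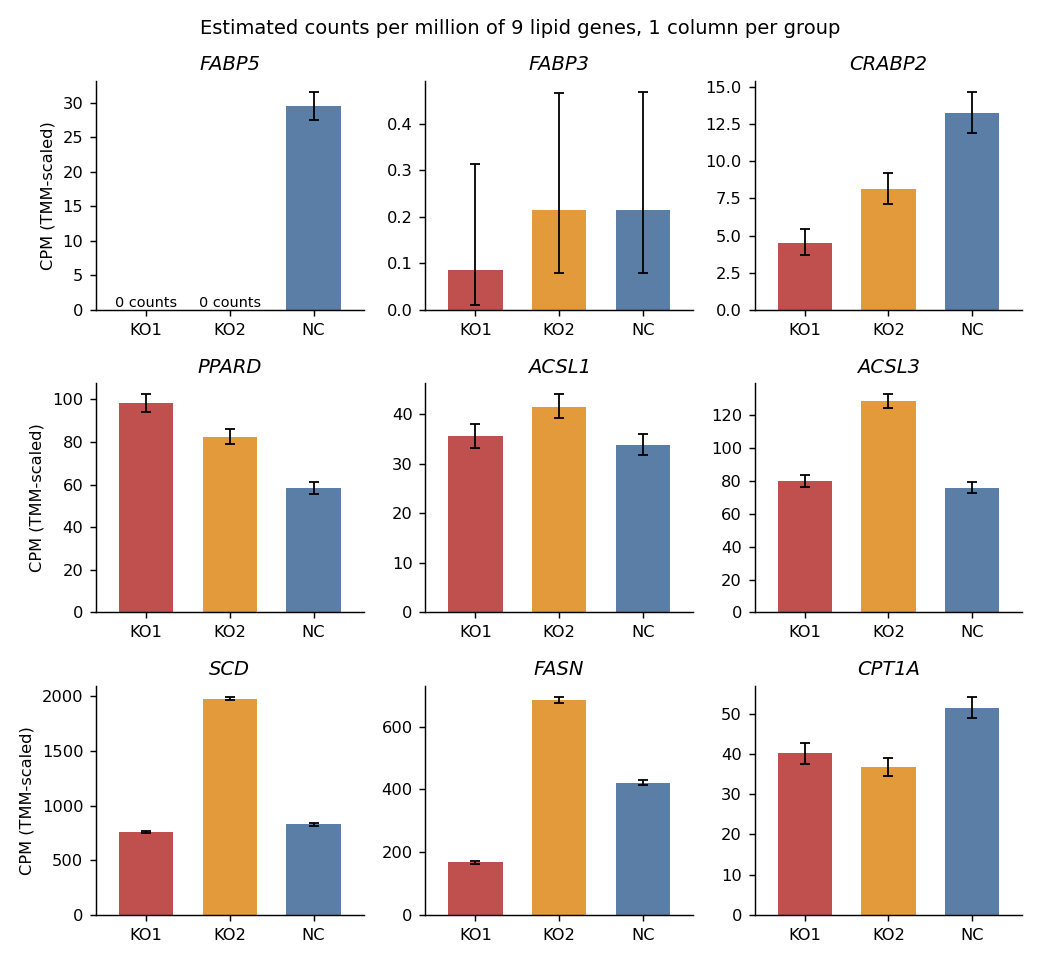
CPM (TMM-scaled) of the 9 genes in KO1, KO2 and NC, 1 bar per column, with exact 95% counting intervals and a separate axis for each gene. FABP5 has 0 counts in KO1 and KO2, SCD, FASN and ACSL3 are highest in KO2, and PPARD is higher in both knockout columns than in NC.

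A size rule summarised these values. To pass, a gene needed a mean of 1 CPM or more, an exact interval that excluded equality, and a log2 fold (prior count 2) of 1 or more in size. Of the 8 members measured at that level, 3 passed as lower in KO1 (FABP5, CRABP2 and FASN), 0 as higher and 5 neither way, where 32.9% of all 14522 measured genes passed in either direction, 17.7% as lower and 15.2% as higher. In KO2, 1 passed as higher (SCD), 1 as lower (FABP5) and 6 neither way, beside 21.1% of all measured genes, 11.0% as higher and 10.1% as lower. Between the knockout columns, 2 members were higher in KO2 (SCD and FASN), 0 lower and 6 neither way, beside 26.2% of all measured genes, 15.1% as higher and 11.1% as lower. Nothing is read from these shares, since the members were chosen on the same contrasts. The log2 folds nearest the limit were -1.33 inside (FASN) and 0.75 outside (PPARD) in KO1, 1.26 inside (SCD) and 0.76 outside (ACSL3) in KO2, and 1.38 inside (SCD) and 0.84 outside (CRABP2) for KO2 against KO1.

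**Figure D3:**
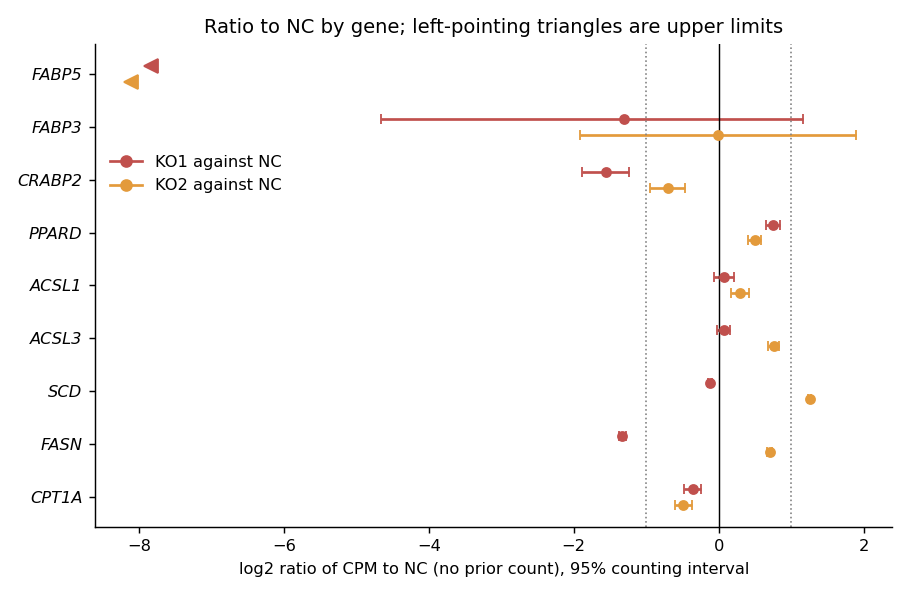
Log2 ratio of CPM to NC for the 9 genes, KO1 in red above KO2 in orange, with exact 95% counting intervals, a solid line at equality and dotted lines at a 2-fold difference. The FABP5 triangles are upper limits set by the floor of 3 counts, without counting error in NC. FASN lies left of equality in KO1 and right of it in KO2, and SCD passes the right dotted line in KO2 only.

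Levels can be ranked between genes per transcript length, on the deposited TPM scale. In KO1 the order was SCD at 176, PPARD at 32.5, FASN at 31.4, ACSL3 at 22.3, ACSL1 at 15.6, CPT1A at 10.1, CRABP2 at 5.62, FABP3 at 0.11 and FABP5 at 0 TPM. In KO2 it was SCD at 614, FASN at 169, ACSL3 at 49.6, PPARD at 37.1, ACSL1 at 23.3, CRABP2 at 14.8, CPT1A at 12.2, FABP3 at 0.58 and FABP5 at 0 TPM. In NC it was SCD at 246, FASN at 98.4, FABP5 at 52.5, ACSL3 at 31.2, PPARD at 24.9, CRABP2 at 21.2, CPT1A at 18.6, ACSL1 at 17.7 and FABP3 at 0.47 TPM. FABP5 was thus the third in NC and last in both knockout columns. Neighbours as close as PPARD and FASN in KO1 or CPT1A and ACSL1 in NC have no spread between cultures by which to separate them.

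The sum over transcripts, on which the genes were chosen, hides how the counts split among isoforms. ACSL1 had a flat total and a very different split. The full-length protein-coding transcript ENST00000281455, with 21 exons and 3832 bases, held 0 counts in KO1, 618 in KO2 and 539 in NC, or 0%, 53.0% and 57.0% of the gene. A shorter coding transcript, ENST00000503407, held 0, 517 and 380 counts. In their place ENST00000513001, a transcript with 3 exons annotated as a retained intron, held 768 counts (93.4%) in KO1, 2 in KO2 and 1 in NC. It shares 1839 bases with the full-length transcript and has no coding bases. Counting protein-coding transcripts alone, a choice made after the data were seen, ACSL1 had 54 counts in KO1, 1163 in KO2 and 945 in NC, which put KO1 14.5-fold lower than NC (11.0 to 19.4) and past the size rule.

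FASN counts were assigned to transcripts that differ by little sequence. ENST00000634990 held 0 counts in KO1, 17117 in KO2 and 10617 in NC, or 0%, 89.2% and 90.4%, and ENST00000306749 held 3758, 1663 and 866 counts, or 97.0%, 8.7% and 7.4%. All 8407 bases of the first lie within the second, which has 158 more, 6 of them coding. The coding difference is at the 3′ end of exon 22 on chromosome 17 (82086254 to 82086558 in ENST00000306749 and 82086260 to 82086558 in ENST00000634990, minus strand), and it is shown because 98.2% of the longer transcript is shared and these 2 codons, in capitals, are the coding bases that separate them. The 24 bases on the left and right are common to both, as they stand in GENCODE release 29.
ENST00000306749: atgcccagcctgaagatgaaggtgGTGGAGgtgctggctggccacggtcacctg
ENST00000634990: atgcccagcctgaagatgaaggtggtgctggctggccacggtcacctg

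PPARD also had another leading transcript in KO1. ENST00000360694 held 171 counts in KO1, 1960 in KO2 and 1618 in NC, or 7.5%, 84.8% and 99.3%. ENST00000311565 held 2086, 3 and 6 counts, or 91.9%, 0.1% and 0.4%. Both encode the same 1323 coding bases and share 3678 bases in all, so they differ by 69 and 96 untranslated bases. In KO2 alone, ENST00000418635, with 1029 coding bases, held 285 counts (12.3%), beside 0 in KO1 and 0 in NC.

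ACSL3, CRABP2, CPT1A and SCD had the same leading transcript in each column. ACSL3 had 81.3%, 81.6% and 64.8% of its counts on ENST00000357430 in KO1, KO2 and NC, and 16.8%, 16.3% and 32.6% on ENST00000392066, which has the same coding length. CRABP2 was assigned to ENST00000368222 for 100% in KO1, 67.0% in KO2 and 100% in NC, with 55 counts (24.2%) on ENST00000621784 in KO2 only. CPT1A had 98.0%, 98.8% and 92.6% on ENST00000265641. SCD has 1 transcript in the table.

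Such differences were common in the table. Among 9863 genes with several transcripts and at least 100 counts in each column, the leading transcript differed from NC in 27.3% for KO1 and 23.0% for KO2, and it differed between KO2 and KO1 in 27.6%. The leading transcript of NC had 0 counts in KO1 for 7.7% of those genes, as for ACSL1 and FASN, and in KO2 for 3.1%. The table gives no error for the assignment of fragments to overlapping transcripts.

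**Figure D4:**
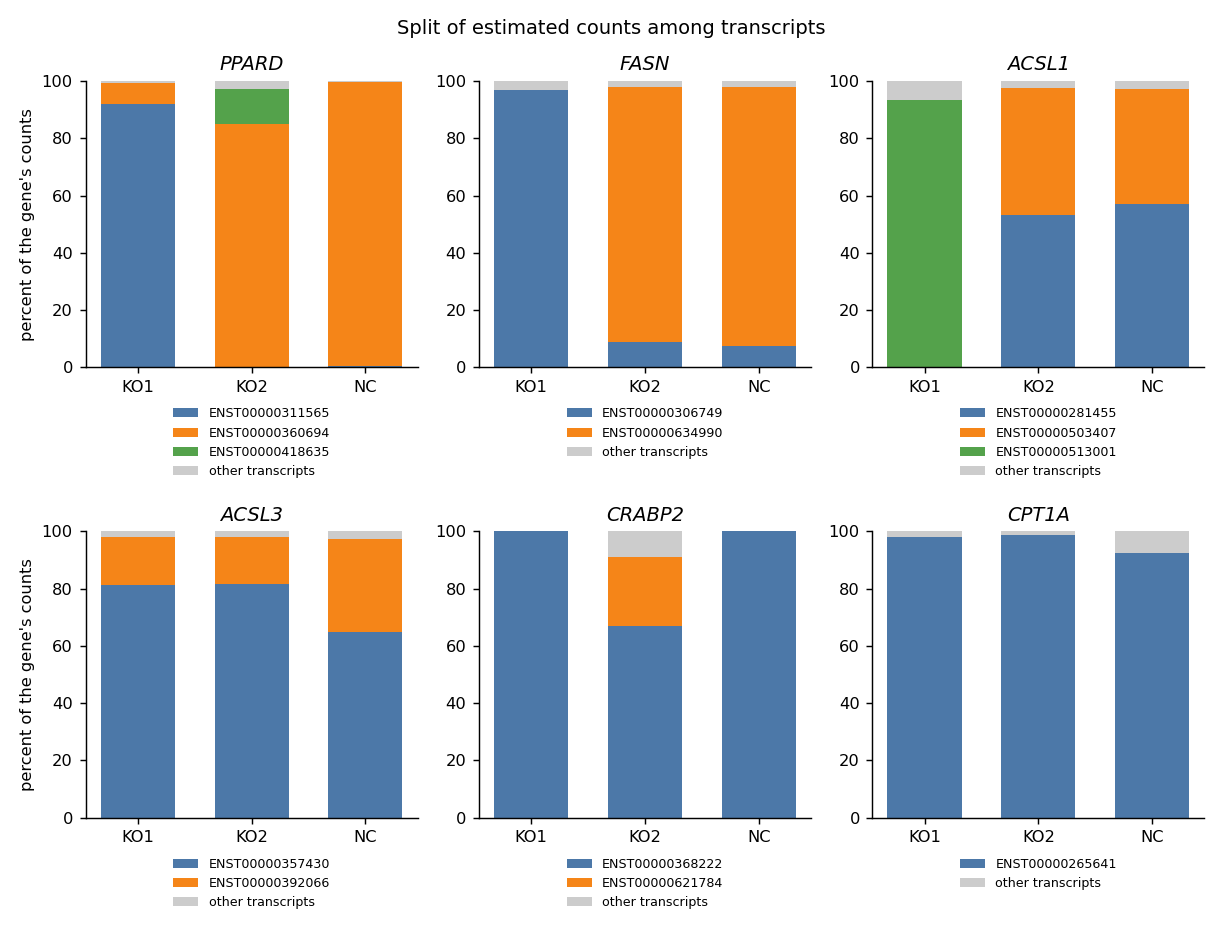
Percent of each gene's estimated counts assigned to its named transcripts in KO1, KO2 and NC for PPARD, FASN, ACSL1, ACSL3, CRABP2 and CPT1A, with other transcripts in grey. The KO1 bar of PPARD, FASN and ACSL1 is mostly a transcript that holds under 10% in NC, while the ACSL3 and CPT1A bars have the same leading transcript in each column.

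The promoters of the members were read for 3 short motifs where RefSeq (GRCh38.p14) holds them, as 250 bases before to 50 after the start. Of the 9 members, 7 were found, with 11 entries. FABP5 and FASN are named only. SCD and ACSL3, the members other than FASN that were more than 1.5-fold higher in KO2 than in both NC and KO1, are shown with the letters CCAAT, the core of the NF-Y site, in capitals. SCD is at chr10:100346983-100347282, plus strand, and ACSL3 at chr2:222860786-222861085, plus strand.
SCD: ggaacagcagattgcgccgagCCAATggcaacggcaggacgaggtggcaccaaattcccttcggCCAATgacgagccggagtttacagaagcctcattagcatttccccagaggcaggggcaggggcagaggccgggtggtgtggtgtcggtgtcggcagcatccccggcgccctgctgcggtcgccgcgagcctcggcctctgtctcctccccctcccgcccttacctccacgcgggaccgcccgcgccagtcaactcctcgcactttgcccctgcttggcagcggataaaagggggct
ACSL3: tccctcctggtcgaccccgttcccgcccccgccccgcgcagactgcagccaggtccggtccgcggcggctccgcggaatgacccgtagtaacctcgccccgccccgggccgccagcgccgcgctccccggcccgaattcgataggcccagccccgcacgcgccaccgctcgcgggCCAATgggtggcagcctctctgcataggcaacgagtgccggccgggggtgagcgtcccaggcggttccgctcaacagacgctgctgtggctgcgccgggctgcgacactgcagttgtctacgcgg
The SCD window holds CCAAT at -229 and -186 and the ACSL3 window at -75, counted from the start site. PPARD held it on the minus strand at -87. Of 5 ACSL1 entries, 1 held it on the minus strand at -215. That entry also held TCACNCCAC, a sterol regulatory element core, on the minus strand at -242. On either strand, CCAAT was in 34.6% of 35116 promoters of the same length, and TCACNCCAC in 1.13%. The consensus PPAR response element, a direct repeat to which PPAR and RXR dimers bind, was in 0.0228% and in none of the 11 member entries. These are letter matches, not sites shown to be bound.

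Around the members, 10 lists of fatty acid and retinoid genes were counted, with 223 genes other than the members in the table and 166 of them measured at a mean of 1 CPM. In KO1, 12 of the 166 passed the size rule as higher and 45 as lower, or 34.3% in all beside 32.9% of all measured genes, with a median log2 fold of -0.43 beside -0.02. In KO2, 14 were higher and 21 lower, or 21.1% beside 21.1%, with a median of -0.12 beside -0.01. Between the knockout columns, 35 were higher in KO2 and 9 lower, or 26.5% beside 26.2%, with a median of 0.33 beside 0.04. Those shares pool both directions. By direction, 7.23% of the 166 were higher and 27.1% lower in KO1, beside 15.2% and 17.7% of all measured genes. In KO2, 8.43% were higher and 12.7% lower, beside 11.0% and 10.1%. For KO2 against KO1, 21.1% were higher and 5.42% lower, beside 15.1% and 11.1%. In both knockout columns 6 (3.61%) were higher and 17 (10.2%) lower, beside 6.19% and 5.78% of all measured genes, and 0 were lower in KO1 and higher in KO2, beside 0.427%. Scaling by column totals in place of TMM moves every KO1 fold against NC by log2 -0.22, every KO2 fold by 0.04, and every fold of KO2 against KO1 by 0.26. On that scaling 9 list genes were higher and 58 lower in KO1, beside 11.3% and 22.5% of all measured genes, and 49 were higher and 6 lower in KO2 against KO1, beside 21.4% and 7.27%.

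With KO1 and KO2 as 1 group of 2 columns against NC, edgeR's quasi-likelihood test (Benjamini-Hochberg adjusted p under 0.05) called 0 of 180 tested list genes, beside 0.262% of all genes tested. Of the 180, 20 (11.1%) had an unadjusted p under 0.05, beside 8.13% of all genes tested. DESeq2's Wald test called 5 of 175 (2.86%), beside 1.79% of all genes with an adjusted p. The test rests on 1 residual degree of freedom and takes NC to vary as the knockout columns do.

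For each list below, the shares of all measured genes past the rule are 15.2% higher and 17.7% lower in KO1. In KO2 they are 11.0% higher and 10.1% lower. Where a list includes members, those were chosen on these contrasts, and their part in its counts is a description. Among 9 measured binding proteins, FABP5 and CRABP2 included, 4 were lower in KO1 and 1 in KO2, and 0 were higher in either. FABP5 and CRABP2 are among the 4, and the 1 in KO2 is FABP5, which passed the filter through NC alone. Nothing is therefore read from these counts. ACBD5, a peroxisomal acyl-CoA binding protein, was at 17.9 CPM in KO1, 42.9 CPM in KO2 and 42.9 CPM in NC. Of 18 measured nuclear receptors and coregulators, PPARD included, 4 were lower in KO1 and 3 in KO2, with 1 higher in KO2. The other 14 passed neither way in KO1, and likewise 14 in KO2. RXRA, a dimer partner of PPARD and of the retinoic acid receptors, was at 35.1 CPM in KO1 and 47.6 CPM in KO2, against 96.9 CPM in NC, and the retinoic acid receptor RARA at 27.9 and 28.7 CPM, against 61.1 CPM. Another retinoic acid receptor, RARB, named after its values were seen, was at 0.0865 and 0.821 CPM, against 11.7 CPM in NC. The coactivator NCOA1 was higher in KO2 only, at 9.60, 44.0 and 9.67 CPM in KO1, KO2 and NC.

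Of 11 measured genes of retinoic acid synthesis, clearance and response, CRABP2 included, 6 were lower in KO1 and 4 in KO2, with 0 higher in either. The other 5 in KO1 and 7 in KO2 passed neither way. The whole list summed to 645, 1555 and 1151 CPM in KO1, KO2 and NC, so its total was above NC in KO2. RARRES2, a retinoic acid responder that encodes chemerin, was at 0.995 CPM in KO1 and 2.89 CPM in KO2, against 27.4 CPM in NC. PLAAT4, another retinoid-inducible gene, was at 8.13 and 8.25 CPM, against 35.6 CPM. ALDH1A3, which makes retinoic acid, was at 72.6, 19.9 and 43.2 CPM in KO1, KO2 and NC.

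Of 24 measured PPAR target genes, ACSL1, ACSL3 and CPT1A included, KO1 had 2 higher and 4 lower and KO2 had 2 higher and 2 lower, with 18 and 20 passing neither way and median log2 folds of -0.17 and -0.20. ANGPTL4, an inhibitor of lipoprotein lipase, was higher in both, at 28.3 CPM in KO1 and 10.2 CPM in KO2, against 4.37 CPM in NC. UCP2, a mitochondrial carrier, was lower in both, at 25.7 and 45.9 CPM, against 156 CPM. TXNIP, an inhibitor of thioredoxin, was at 1087 CPM in KO1, 105 CPM in KO2 and 250 CPM in NC. It was the 1 list gene past the rule as higher in KO1 and lower in KO2. The share of all measured genes with that pattern is not given here, so nothing is read from this count.

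Uptake and activation genes, ACSL1 and ACSL3 included, numbered 18 measured, with 2 higher and 3 lower in KO1 and 2 higher and 3 lower in KO2. VLDLR, a receptor of triglyceride-rich lipoproteins, was at 115 CPM in KO1 and 32.4 CPM in KO2, against 13.2 CPM in NC. ACSS1, the mitochondrial acetyl-CoA synthetase, was at 1.17 and 3.11 CPM, against 16.0 CPM. The long-chain synthetase ACSL4, named after its values were seen, was at 75.9, 105 and 72.2 CPM in KO1, KO2 and NC and did not pass the rule.

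Around FASN, 23 synthesis genes and regulators were measured, FASN included, with 2 higher and 6 lower in KO1 and 0 higher and 2 lower in KO2. ME1, malic enzyme, which supplies NADPH, was lower in both, at 22.6 CPM in KO1 and 21.1 CPM in KO2, against 87.1 CPM in NC. SLC25A1, the mitochondrial citrate carrier, was ordered like FASN, at 26.4, 177 and 91.1 CPM in KO1, KO2 and NC. ACLY, which cleaves citrate to acetyl-CoA and was named after its values were seen, was at 166, 287 and 399.6 CPM. MID1IP1, an activator of acetyl-CoA carboxylase, was at 202 CPM in KO1, 46.5 CPM in KO2 and 32.7 CPM in NC. SREBF1, the transcription factor of this pathway, also named after its values were seen, was at 240.2, 230.4 and 155 CPM and passed the rule in neither column.

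Beside SCD, desaturases and elongases had the largest share past the rule in KO1 of the 10 lists. Of 16 measured, SCD included, KO1 had 1 higher and 8 lower, 56.2% past the rule beside 32.9% of all measured genes. The retinoic acid list was close to it, at 54.5%. In KO2, 4 were higher and 2 lower, 37.5% beside 21.1% of all measured genes. Between the knockout columns 8 were higher in KO2 and 0 lower, 50% beside 26.2%. The median log2 fold there was 1.04 beside 0.04. FADS2, the delta-6 desaturase, was at 16.2 CPM in KO1, 123 CPM in KO2 and 217 CPM in NC, so that unlike SCD it was below NC in both. FADS3 was at 40.2 and 30.2 CPM, against 117 CPM in NC. SCD5, the other stearoyl-CoA desaturase, was at 5.93, 25.3 and 33.1 CPM. HSD17B12, a reductase of fatty acid elongation, was ordered like SCD, at 82.2, 213 and 84.5 CPM, and the dehydratase HACD3 was higher in both knockout columns, by log2 1.15 in KO1 and by 1.87 in KO2.

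On the oxidation side, 27 mitochondrial genes were measured, CPT1A included, with 2 higher and 3 lower in KO1 and 2 higher and 2 lower in KO2, beside medians of log2 -0.21 and -0.21. ACADSB, a short/branched-chain acyl-CoA dehydrogenase, was at 10.1 CPM in KO1 and 27.8 CPM in KO2, against 2.47 CPM in NC, and the brain-type carnitine palmitoyltransferase CPT1C was at 1.12 and 6.25 CPM, against 13.0 CPM. Of 18 peroxisomal genes, KO1 had 1 higher and 5 lower, and KO2 had 3 higher and 2 lower. CAT, catalase, was at 19.3, 48.9 and 78.7 CPM in KO1, KO2 and NC. ACOX2, an acyl-CoA oxidase, was lower in both knockout columns, at 4.24 and 12.5 CPM against 27.8 CPM.

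Storage genes complete the lists. Of 27 measured genes of triacylglycerol synthesis, lipid droplets and lipolysis, KO1 had 2 higher and 9 lower, and KO2 had 1 higher and 2 lower. G0S2, an inhibitor of the lipase PNPLA2, was at 1768 CPM in KO1, 116 CPM in KO2 and 177 CPM in NC. GPAT2, a glycerol-3-phosphate acyltransferase, was at 18.1 and 21.1 CPM, against 105 CPM in NC. PLIN3, a droplet coat protein, was at 66.0, 109 and 172 CPM.

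**Figure D5:**
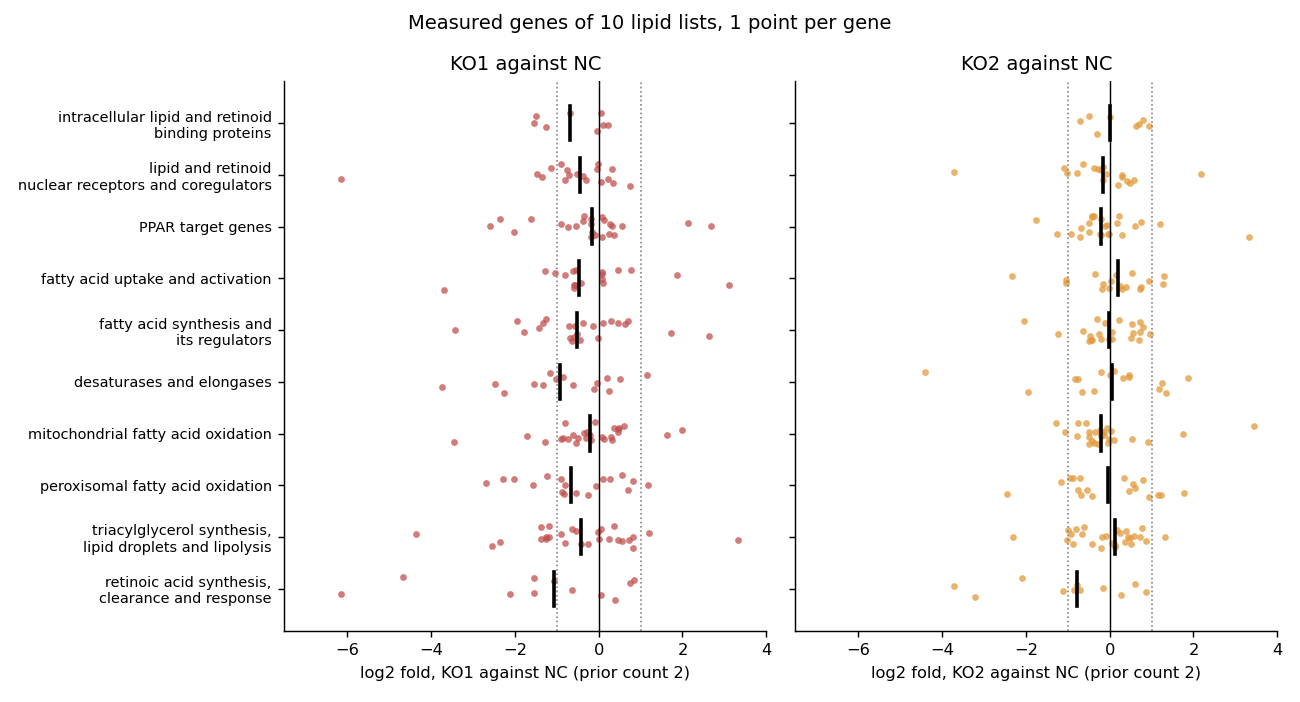
Log2 fold (prior count 2) of KO1 against NC on the left and KO2 against NC on the right for the measured genes of the 10 lists, 1 point per gene, with the list median as a black bar and dotted lines at a 2-fold difference. Genes with 0 counts in a compared column have no point, members are included, and in KO1 the medians run from -1.07 for retinoic acid genes to -0.17 for PPAR targets.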

How the data were processed

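RNA was extracted with Trizol and sequenced as stranded total RNA libraries, per the labels. The only deposited table lists transcripts with counts, TPM and FPKM for each of KO1, KO2 and NC, per the file headers. The deposited Count columns were read as estimated counts per transcript, whole numbers that appear to be rounded up by the authors. TPM values are used as deposited, and the 3 columns of FPKM were left out. Per the submitters' processing notes, CASAVA, Bowtie2 and featureCounts were used with hg38, and no version is named. Which tool estimated the transcripts and whether a column is 1 library or both samples are not given in the sources used here. Columns were matched to the 3 groups by name.

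Counts were summed per gene ID over 199167 transcripts and scaled to CPM with TMM (edgeR 4.0.16, R 4.3.3). Symbols were found for 57392 of the 58174 gene IDs, and transcript types and exons come from GENCODE release 29, which holds 196287 of the transcripts at the deposited position. Columns were compared by the size rule, with Clopper-Pearson intervals conditional on the summed count and a floor of 3 counts per column where a count is 0. These limits reflect counting error alone, since each group has 1 column. They treat sequenced fragments as separate molecules, which need not hold, since the fragments carry no molecular identifier. Error in assigning fragments to transcripts is left out of these limits. List genes were also tested with edgeR (both knockout columns against NC) and DESeq2 1.42.0 as alternatives, after the edgeR step was checked on simulated data. The simulation gave both knockout columns the same changes, unlike these data, so it does not show how the test behaves here. The edgeR p-values rest on how far 2 columns differ and say nothing of cultures of a genotype.

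The members and lists were chosen with earlier results of these data known. The rule for named genes took the members, in each list up to 4 genes per direction past the size rule in both knockout columns and up to 2 in 1 column with a mean of at least 5 CPM, of which examples are printed, transcripts with at least 10% and 20 counts, pseudogenes and genes near FABP5 with at least 20 counts, and the 8 genes with a symbol, 0 counts in both knockout columns and the highest CPM in NC. Alternatives changed the scaling, prior count, fold, filter, unit (TPM with a pseudocount of 0.1), pseudogenes and transcript types.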

Additional observations from a re-analysis of the deposited data

Results flagged for a closer look

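For 5 of the named genes KO1 and KO2 lay on opposite sides of NC, each by at least 1.5-fold with TMM scaling. Most named genes were picked by the size rule on these same columns. The share of all measured genes at this limit is not given here, so nothing is read from the count. With scaling by column totals 3 of the 5 met that limit, while ALDH1A3 was 1.44-fold higher in KO1 and G0S2 was 1.48-fold lower in KO2 than in NC. With 1 column per group the difference was not tested, and each value below is a log2 fold of KO2 against KO1. FASN, fatty acid synthase, was higher in KO2 by 2.03, and SLC25A1, the mitochondrial citrate carrier, by 2.74. TXNIP, the thioredoxin inhibitor, had a value of -3.37 and G0S2, the lipase inhibitor, -3.93, both with their highest level in KO1. ALDH1A3, which makes retinoic acid, had -1.86.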

How the results depend on the processing

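No paired analysis was possible because the table has 1 column per group and its columns carry no replicate number, although the labels give each group replicates 1 and 2. For the same reason leaving out a replicate was not run. With a fold of at least 1.5 in place of 2, list genes past the rule numbered 95 in KO1 (57 at 2-fold), 75 in KO2 (35) and 74 for KO2 against KO1 (44), and members past it numbered 5 in KO2 (2) and 4 for KO2 against KO1 (2). A looser limit passes more genes in any set. The share of all measured genes at 1.5-fold is not given here, so nothing is read from the rise. Against the 57 and 35 list genes of the size rule, edgeR called 0 (20 at an unadjusted p under 0.05) and DESeq2 called 5. The other counts of members and list genes stayed within 1.5 times under the other scalings and without the filter on low counts, apart from what is printed here. Of 168 member log2 folds recomputed under 7 alternatives, 133 moved by less than their counting interval and 35 by more, 17 with TPM, 14 with scaling by totals, 2 with DESeq2 size factors and 2 with protein-coding transcripts only. Signs turned for ACSL1, ACSL3, CPT1A, PPARD and FABP3. In KO1, ACSL1 and ACSL3 were at 0.07 and 0.07 with TMM, -0.15 and -0.15 with totals, and -0.18 and -0.48 with TPM. The log2 fold of CPT1A in KO2 against KO1 was -0.13 with TMM, 0.13 with totals and 0.28 with TPM, and that of PPARD was -0.25, 0.01 and 0.19. FABP3 folds rest on at most 6 counts. With protein-coding transcripts only, chosen after the data were seen, ACSL1 in KO1 was at -3.81, and 4 members passed the rule in KO1. That choice was applied to the members only, so no share of all genes stands beside it. At this depth a gene with 0 counts cannot be told apart from one below 3 counts per column.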
